A study of Mus musculus with 12 samples.

Results

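Heme breakdown and heme transport were followed through 8 genes of the 16145 genes listed in at least 1 library: the heme oxygenases Hmox1 and Hmox2, the biliverdin reductases Blvra and Blvrb, the transporters Slc48a1, Slc46a1 and Flvcr1, and the heme-binding protein gene Hebp1. They were taken by gene symbol, and all 8 were listed in each of the 12 libraries and passed the filter on low counts. The libraries were RNA-seq libraries of mouse bone marrow-derived macrophages, which are macrophages grown out of marrow precursors for 7 days with the growth factor M-CSF. There were 4 groups of 3 libraries. In the treated groups, wild-type cells were given 120 µM 4-OI (4-octyl itaconate, a cell-permeable ester of the metabolite itaconate) for 15 h or 15 µM hemin (the oxidised, chloride-bound form of heme) for 12 h. In the other groups, cells of mice labelled Irg1KO and cells of wild-type mice were given vehicle for 12 h. Irg1, listed as Acod1, encodes the enzyme that makes itaconate. The labels give neither the design of the knockout allele nor the strain or age of the mice. The 4-OI libraries were set against vehicle libraries of 12 h, so compound and hours cannot be told apart there. Whether replicates came from separate animals or separate cultures is not stated. Every p-value thus sets a group difference against the spread between these libraries, which may be technical.

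Macrophages take up heme when they engulf red cells. Heme oxygenase opens the heme ring with electrons from cytochrome P450 reductase and releases iron, carbon monoxide and biliverdin, and biliverdin reductases turn biliverdin into bilirubin. Hmox1 is the inducible oxygenase and Hmox2 the constitutive one, and Slc48a1 (HRG1) carries heme from the phagolysosome into the cytosol. Transcription of Hmox1 is repressed by BACH1, which heme binds and releases from DNA, and is activated by NRF2, the product of Nfe2l2.

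The libraries held between 9405112 and 22390882 expected counts. Macrophage markers were present in every group, with 8 of 8 listed and Csf1r, the M-CSF receptor gene, at 2323 CPM (read count relative to library size, scaled by TMM) with 4-OI, 2453 CPM with hemin, 1898 CPM in the knockout and 2206 CPM in wild-type vehicle cells. Of these 8 genes, all tested, 2 rose and 2 fell with 4-OI, and 3 rose and 1 fell with hemin. In the knockout 1 fell, Csf1r, and 2 rose, Adgre1 and Cd14. Rose and fell here mean an adjusted p under 0.05 in edgeR's quasi-likelihood test. Over all 12148 genes tested, 25.4% rose and 25.0% fell with 4-OI, 9.48% and 7.74% with hemin, and 23.5% and 16.3% in the knockout. Acod1 had 35.6 ± 5.58 CPM with 4-OI, 84.8 ± 18.2 CPM with hemin, 20.5 ± 6.41 CPM in the libraries labelled Irg1KO and 27.7 ± 2.74 CPM with wild-type vehicle (SD, n = 3 each). The knockout difference of Acod1 was -0.48 on the log2 scale (SE 0.26, adjusted p = 0.194, edgeR quasi-likelihood test), so gene-level counts did not separate the genotypes. The deposited FPKM values (fragments relative to transcript length and library size) of Acod1 did not overlap. They ran from 4.2 to 8.76 in the knockout, against 10.26 to 12.29 with wild-type vehicle. Why counts and FPKM differ here was not tested, and the knockout is named throughout by its label only. Stromal markers stood apart in the knockout, where 6 of the 6 tested (of 8 listed) rose. Their summed level ran from 10259 to 11498 CPM in the knockout, against 1701 to 2097 CPM with wild-type vehicle. Among the neutrophil markers, 2 of the 5 tested (of 7 listed) rose with 4-OI, Mmp8 and S100a8, and 0 fell. With hemin 1 rose and 0 fell, and in the knockout 1 rose and 3 fell. The sum of the 7 neutrophil markers ran from 338 to 361 CPM with 4-OI and 94.99 to 104 CPM with hemin. It ran from 41.4 to 45.6 CPM in the knockout, against 83.6 to 94.2 CPM with vehicle. Most of it was Mmp8, at 313 CPM with 4-OI, 91.9 CPM with hemin, 36.4 CPM in the knockout and 79.5 CPM with vehicle. S100a8 was at 31.2 CPM with 4-OI, against 2.39 CPM with vehicle. S100a9, Ltf and Ngp were at 3.24, 0.796 and 2.59 CPM with 4-OI and were not called there. Of the 5 endothelial markers, all tested, 0 rose, and 2 fell with 4-OI, 1 with hemin and 2 in the knockout. Their sum ran from 9.59 to 11.0 CPM with 4-OI and 17.5 to 19.7 CPM with hemin. It ran from 30.5 to 34.0 CPM in the knockout, against 36.4 to 40.7 CPM with vehicle. Most of the vehicle sum was Kdr, at 28.6 CPM, against 4.98 CPM with 4-OI, 11.1 CPM with hemin and 25.0 CPM in the knockout. With 4-OI against vehicle, Cdh5 had 2.11 against 5.48 CPM and Vwf 1.06 against 1.76 CPM. Pecam1 had 1.17 against 1.12 CPM there, and Emcn 1.19 against 0.878 CPM. Erythroid markers, of which 2 of 9 had a row in the files, summed to at most 2.39 CPM in a library. The 1 tested, Tfr2, rose by 2.97 on the log2 scale in the knockout. It was low there, at 1.60 CPM, against 0.216 CPM with vehicle, and it was not called with 4-OI or hemin. The stromal markers Dcn and Lum and the neutrophil marker Elane were too low to be tested. Dcn had at most 9 counts in any library, and Lum and Elane at most 4. At this floor, Dcn and Lum were at 0 in the 3 libraries with 4-OI, and Elane in the 3 knockout libraries. The part of these cell types in the results below was not tested. In bulk libraries the number of cells of a type, RNA per cell and expression of a marker by other cells cannot be told apart.

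RefSeq promoter windows of 250 bases before to 50 bases after a transcription start were at hand for 6 of the 8 genes. They are of build GRCm38.p6, while the submitters' processing used GRCm39. No window was at hand for Hmox1 or Slc48a1, so these genes were not searched. The letters TGACNNNGC (the core of the antioxidant response element, to which NRF2 binds), TGANTCA (an AP-1 type core) and CACGTG (an E-box) were searched on both strands. TGACNNNGC stood in 12.4% of all 32817 windows, TGANTCA in 7.81% and CACGTG in 7.15%. Of the windows of these 6 genes, that of Blvra held TGACNNNGC once, 49 bases before the start, that of Flvcr1 held it once, 151 bases before the start, and that of Hebp1 held CACGTG once, 58 bases before the start. The windows of Hmox2, Blvrb and Slc46a1 held none of these letters. The windows of the biliverdin reductases are printed because their genes moved in opposite directions, and that of Flvcr1 because it holds the same motif as that of Blvra. They lie at chr2:127070407-127070706 on the plus strand (Blvra), at chr7:27447728-27448027 on the plus strand (Blvrb, the first of its windows) and at chr1:191026141-191026440 on the minus strand (Flvcr1), and capitals mark a match of TGACNNNGC on either strand. A match here describes letters only and shows no binding.
Blvra: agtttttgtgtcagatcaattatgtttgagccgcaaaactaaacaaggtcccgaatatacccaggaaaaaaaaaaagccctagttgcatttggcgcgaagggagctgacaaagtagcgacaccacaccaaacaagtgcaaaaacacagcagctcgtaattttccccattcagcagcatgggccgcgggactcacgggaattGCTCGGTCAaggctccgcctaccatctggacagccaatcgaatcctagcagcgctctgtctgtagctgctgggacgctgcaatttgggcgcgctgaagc
Blvrb: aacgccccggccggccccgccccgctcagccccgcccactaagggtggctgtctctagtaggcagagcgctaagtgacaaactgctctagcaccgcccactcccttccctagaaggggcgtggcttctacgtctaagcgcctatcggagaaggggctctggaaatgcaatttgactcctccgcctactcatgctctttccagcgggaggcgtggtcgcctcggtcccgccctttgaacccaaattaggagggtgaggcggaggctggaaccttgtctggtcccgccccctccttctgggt
Flvcr1: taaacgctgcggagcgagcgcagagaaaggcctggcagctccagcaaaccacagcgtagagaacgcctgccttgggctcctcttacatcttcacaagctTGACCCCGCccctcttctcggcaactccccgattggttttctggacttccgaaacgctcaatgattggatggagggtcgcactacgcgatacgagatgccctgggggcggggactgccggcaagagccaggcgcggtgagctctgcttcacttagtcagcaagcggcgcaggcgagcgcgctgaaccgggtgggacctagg

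With 4-OI, 7 of the 8 genes were called at an adjusted p under 0.05 in edgeR's quasi-likelihood test, 4 of them higher and 3 lower than with vehicle, where 50.4% of the 12148 genes tested were called (25.4% higher and 25.0% lower). Hmox1, Blvrb, Slc48a1 and Flvcr1 rose and Hmox2, Blvra and Hebp1 fell, and Slc46a1 was not called. With hemin, 4 of 8 were called, where 17.2% of all genes were called (9.48% higher and 7.74% lower). Hmox1, Slc48a1 and Blvrb rose and Blvra fell. In the knockout, 0 of 8 were called by edgeR, where 39.8% of all genes were called (23.5% higher and 16.3% lower). There 0 of 8 also had an unadjusted p under 0.05, and DESeq2 and limma on the FPKM values (fragments relative to transcript length and library size) likewise called 0. Between 4-OI and hemin, 6 of 8 differed, where 42.3% of all genes were called (20.6% higher and 21.7% lower). Blvrb and Flvcr1 were higher with 4-OI than with hemin, and Hmox1, Slc48a1, Hmox2 and Hebp1 were lower. The libraries of the groups compared did not overlap for 7 of 8 genes with 4-OI (56.5% of all genes), 5 of 8 with hemin (30.7%), 1 of 8 in the knockout (49.7%) and 5 of 8 between 4-OI and hemin (49.8%). The median log2 fold change of the 8 genes was 0.19 with 4-OI, 0.051 with hemin, 0.028 in the knockout and -0.098 between 4-OI and hemin, beside medians over all genes tested of -0.0031, -0.0060, -0.00033 and 0.0015. The comparisons with vehicle share the same 3 vehicle libraries, so their values are given side by side. On the deposited FPKM values, which carry no such scaling, the median of all genes moved by -0.11 with 4-OI on the log2(FPKM + 1) scale, and limma called 1743 genes higher and 4608 lower there, against 3083 higher and 3043 lower on the scaled counts. The same scale gave 621 genes higher and 1422 lower with hemin, against 1152 higher and 940 lower, and 1726 higher and 3490 lower between 4-OI and hemin, against 2500 higher and 2636 lower.

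**Figure D1:**
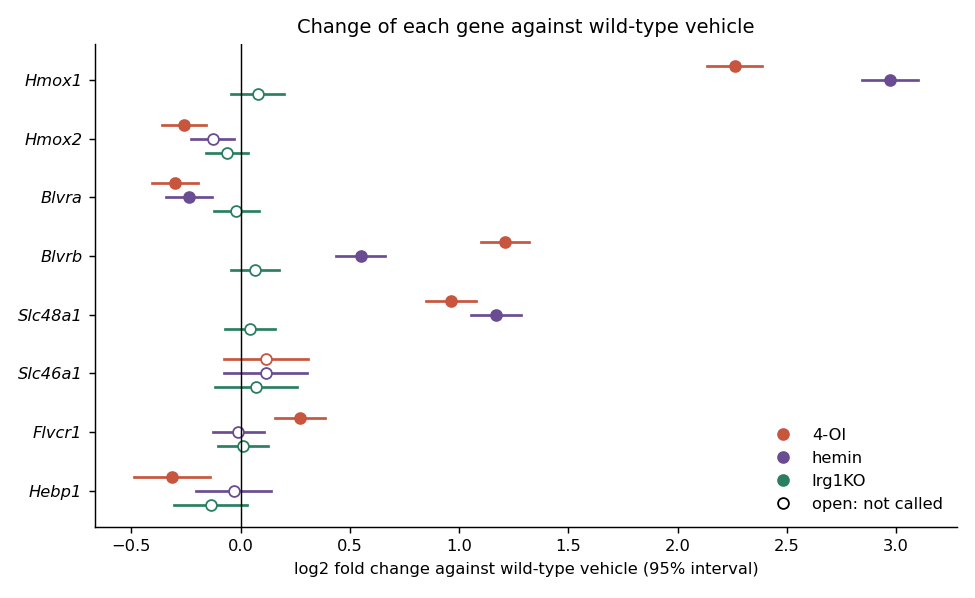
Log2 fold change of each of the 8 genes against wild-type vehicle (x axis, log2 of scaled counts) for 4-OI, hemin and the knockout; points are edgeR estimates, bars their 95% intervals, filled points passed an adjusted p under 0.05 and open points did not. Hmox1 lies farthest from 0 with hemin (2.97) and 4-OI (2.26), Blvrb and Slc48a1 lie to the right of 0 for both compounds, and the knockout points are all open.

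Hmox1 had 4776, 4836 and 4762 CPM with 4-OI and 7086, 7950 and 8506 CPM with hemin. Under vehicle the knockout had 999.01, 1054 and 1112 CPM, against 966, 1087 and 946 CPM in wild-type vehicle cells. The lowest hemin library lay above the highest 4-OI library, both treated groups lay clear of the vehicle groups, and the knockout and wild-type vehicle ranges overlapped. The 4-OI libraries were nearly level with each other, while the hemin libraries were spread more widely. Hmox1 rose 4.79-fold with 4-OI (log2 fold change 2.26, SE 0.06, adjusted p = 3.97e-24, edgeR quasi-likelihood test) and 7.85-fold with hemin (log2 fold change 2.97, SE 0.06, adjusted p = 4.63e-26). By size, the hemin change ranked 4 among the 12148 genes ordered from the highest log2 fold change, and the 4-OI change ranked 84. The direct difference between 4-OI and hemin was -0.71 on the log2 scale (SE 0.06, adjusted p = 1.08e-11), with dose and hours also differing between them. In the knockout the log2 difference was 0.08, with a 95% interval from -0.04 to 0.20 (adjusted p = 0.318).

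Hmox2, the constitutive oxygenase, had 116, 118.03 and 118.28 CPM with 4-OI and 126, 129 and 129.89 CPM with hemin. The knockout libraries had 130.44, 133 and 139.77 CPM, against 133, 143 and 145 CPM in wild-type vehicle cells. All 3 libraries of each treatment lay below all 3 vehicle libraries, and the knockout range overlapped that of vehicle. Hmox2 fell with 4-OI by 0.26 on the log2 scale (SE 0.05, adjusted p = 2.72e-05), the opposite direction to Hmox1. With hemin the log2 difference was -0.13 (95% interval -0.23 to -0.03, adjusted p = 0.0647), which did not pass. It passed in 6 of 15 settings, among them RLE factors (adjusted p = 0.0452), upper-quartile factors (0.0396), limma on log2(FPKM + 1) (0.00815) and without vehicle replicate 1 (0.0301). DESeq2 was among the settings where it did not pass, and the highest adjusted p over the settings was 0.225. Between 4-OI and hemin the log2 difference was -0.13 (SE 0.05, adjusted p = 0.0316), and this call was lost in 8 of 15 settings, among them DESeq2 (adjusted p = 0.0999) and each 4-OI library left out in turn (adjusted p from 0.0517 to 0.0893). In the knockout the log2 difference was -0.06 (95% interval -0.16 to 0.035, adjusted p = 0.321). Exons of Hmox2 overlap those of Cdip1 on the opposite strand, and the strand setting of the counting is not stated. Cdip1 had 27.9 CPM with 4-OI, 28.8 CPM with hemin, 31.2 CPM in the knockout and 28.2 CPM with vehicle.

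Per length, the balance of the oxygenases differed between groups. The ratio of Hmox1 to Hmox2 in FPKM was 32.0, 31.8 and 31.3 with 4-OI and 43.8, 47.5 and 50.8 with hemin. It was 5.94, 6.11 and 6.16 in the knockout and 5.60, 5.88 and 4.99 with wild-type vehicle. Hmox1 was thus the more abundant oxygenase message in each of the 12 libraries, and its lead was several times larger in both treated groups, whose ranges did not overlap with each other. By FPKM, Hmox1 ranked 10 among the 16145 genes with 4-OI, 6 with hemin, 71 in the knockout and 80 with vehicle. It took 0.454% of all counts with 4-OI, 0.791% with hemin, 0.107% in the knockout and 0.106% with vehicle.

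**Figure D2:**
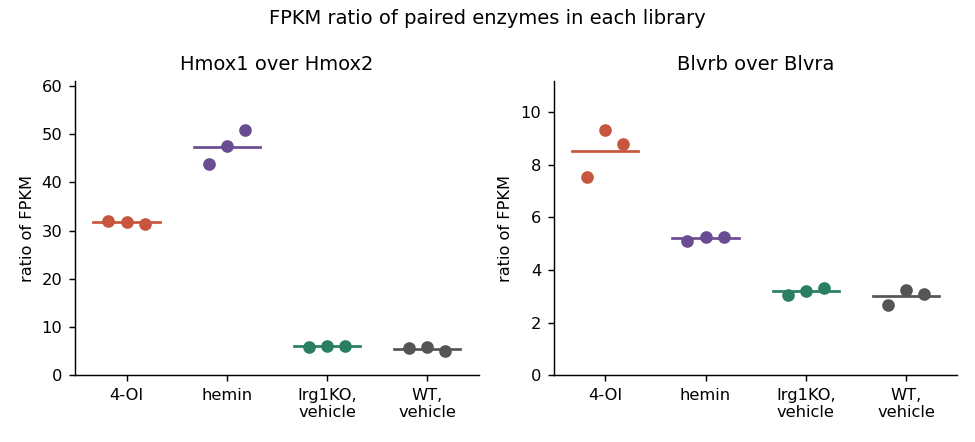
Ratio of deposited FPKM values within each library for Hmox1 over Hmox2 and for Blvrb over Blvra (y axis, ratio) by group; each point is a library and the line the mean. Both ratios are higher in the 4-OI and hemin libraries than in any vehicle library, with hemin highest for the oxygenases (47.3 on average) and 4-OI highest for the reductases (8.54 on average).

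Blvra, which reduces biliverdin IX alpha to bilirubin, had 99.4, 93.7 and 91.1 CPM with 4-OI and 96.3, 100.49 and 100.47 CPM with hemin. In vehicle, knockout cells had 119, 111 and 116 CPM, against 122, 112 and 117 CPM in wild-type vehicle cells. Every library of both treatments lay below every vehicle library, and the treated groups overlapped each other. Blvra fell by 0.30 with 4-OI (SE 0.05, adjusted p = 6.19e-06) and by 0.24 with hemin (SE 0.05, adjusted p = 0.00084), both on the log2 scale. The log2 difference between 4-OI and hemin was -0.06 (95% interval -0.17 to 0.04, adjusted p = 0.354), and limma on log2(FPKM + 1) gave -0.14 with an adjusted p of 0.0254. The knockout differed by -0.02 (95% interval -0.12 to 0.08, adjusted p = 0.789).

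Blvrb, a flavin reductase that also reduces biliverdin IX beta, moved the other way. It had 468, 557 and 512 CPM with 4-OI and 310.1, 331 and 331 CPM with hemin. Knockout cells had 229, 227 and 239.65 CPM, against 209, 231 and 226 CPM in wild-type vehicle cells. The 4-OI libraries lay above the hemin libraries and these above all libraries given vehicle, without overlap. Blvrb rose 2.31-fold with 4-OI (log2 fold change 1.21, SE 0.05, adjusted p = 5.54e-20) and 1.46-fold with hemin (log2 fold change 0.55, SE 0.05, adjusted p = 1.49e-09). The direct log2 difference of 0.66 between 4-OI and hemin (SE 0.05, adjusted p = 1.38e-12) was thus opposite in sign to that of Hmox1, and dose and hours differ there too. In the knockout Blvrb differed by 0.06 (95% interval -0.05 to 0.175, adjusted p = 0.370). The FPKM ratio of Blvrb to Blvra was 7.52, 9.31 and 8.79 with 4-OI and 5.11, 5.25 and 5.26 with hemin. It was 3.05, 3.22 and 3.31 in the knockout and 2.68, 3.26 and 3.09 with vehicle. As the plot of enzyme ratios shows, the order of the treated groups for the reductases was the reverse of that for the oxygenases.

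Slc48a1, the phagolysosomal heme transporter, had 855, 943 and 925 CPM with 4-OI and 969, 1108 and 1066 CPM with hemin. The vehicle-treated knockout cells had 466, 485 and 490.1 CPM, against 443, 509.99 and 444 CPM in wild-type vehicle cells. All treated libraries lay far above all libraries given vehicle, and the lowest hemin library lay just above the highest 4-OI library. Slc48a1 rose 1.95-fold with 4-OI (log2 fold change 0.96, SE 0.06, adjusted p = 3.79e-16) and 2.25-fold with hemin (log2 fold change 1.17, SE 0.06, adjusted p = 4.21e-17). Between 4-OI and hemin it differed by -0.21 on the log2 scale (SE 0.06, adjusted p = 0.00264), and in the knockout by 0.04 (95% interval -0.07 to 0.16, adjusted p = 0.569). Its exons overlap those of Hdac7 on the opposite strand, which had 21.8 CPM with 4-OI, 23.3 CPM with hemin, 25.7 CPM in the knockout and 17.3 CPM with vehicle, few reads beside those of Slc48a1.

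The FPKM ratio of Hmox1 to Slc48a1 averaged 8.45 ± 0.41 with 4-OI, 12.0 ± 0.68 with hemin, 3.52 ± 0.11 in the knockout and 3.44 ± 0.039 with wild-type vehicle (SD, n = 3 each). The ratio of Hmox1 to Blvrb averaged 4.55 ± 0.38 with 4-OI, 11.6 ± 0.67 with hemin, 2.19 ± 0.076 in the knockout and 2.18 ± 0.15 with vehicle (SD, n = 3 each). Hmox1, Slc48a1 and Blvrb were the genes that rose in both treatments. Among them, the oxygenase thus gained on the transporter and on the reductase in both treatments, and by more with hemin.

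Slc46a1, the proton-coupled folate transporter that has also been described as a low-affinity heme carrier, was the least abundant of the 8 per length. It had 15.7 to 18.9 CPM with 4-OI, 16.2 to 18.1 CPM with hemin, 15.5 to 17.6 CPM in the knockout and 15.4 to 16.5 CPM with wild-type vehicle. The ranges of all groups overlapped. It was called in none of the 4 comparisons by edgeR, with log2 differences of 0.12 with 4-OI (95% interval -0.08 to 0.31, adjusted p = 0.322), 0.11 with hemin (-0.08 to 0.30, adjusted p = 0.473), 0.07 in the knockout (-0.12 to 0.26, adjusted p = 0.587) and 0.0016 between 4-OI and hemin (-0.20 to 0.20, adjusted p = 0.992).

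Flvcr1, first described as a heme exporter and later as a choline transporter, had 100.2, 106 and 106 CPM with 4-OI and 87.3, 82.6 and 86.8 CPM with hemin. Vehicle-treated knockout libraries had 83.9, 81.2 and 96.0 CPM, against 86.1, 83.5 and 89.4 CPM in wild-type vehicle cells. All libraries with 4-OI lay above all vehicle libraries, and those of hemin and the knockout overlapped vehicle. Flvcr1 rose by 0.27 on the log2 scale with 4-OI (SE 0.06, adjusted p = 0.000123). On log2(FPKM + 1), where the median of all genes moved as given above, limma gave 0.11 with an adjusted p of 0.132. The call was kept in 13 of 15 settings, RLE and upper-quartile factors among them, and lost with limma on both FPKM scales. With hemin the log2 difference was -0.01 (95% interval -0.13 to 0.11, adjusted p = 0.934), and the direct difference between 4-OI and hemin was 0.28 (SE 0.06, adjusted p = 0.000133). In the knockout it was 0.01 (95% interval -0.10 to 0.13, adjusted p = 0.890). Exons of Flvcr1 overlap those of A230020J21Rik on the opposite strand, which is not analysed here.

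Hebp1, which encodes a cytosolic heme-binding protein, had 23.8, 19.8 and 25.4 CPM with 4-OI and 24.6, 28.4 and 29.4 CPM with hemin. The knockout had 25.7, 25.9 and 25.5 CPM, against 29.9, 27.6 and 27.4 CPM in wild-type vehicle cells. The 4-OI and knockout libraries lay below all vehicle libraries, and the hemin libraries overlapped vehicle. Hebp1 fell with 4-OI by 0.31 on the log2 scale (SE 0.09, adjusted p = 0.00251), a call lost without 4-OI replicate 2, the lowest library (log2 difference -0.21, adjusted p = 0.0672). With hemin it differed by -0.03 (95% interval -0.20 to 0.14, adjusted p = 0.848). The direct difference between 4-OI and hemin was -0.28 (SE 0.09, adjusted p = 0.0105), although those groups overlapped, and it was lost without 4-OI replicate 2 (adjusted p = 0.158) or hemin replicate 3 (adjusted p = 0.0749). In the knockout the difference was -0.14 (95% interval -0.30 to 0.03, adjusted p = 0.191). Exons of Hebp1 overlap those of Fam234b on the opposite strand, which had 13.9 CPM with 4-OI, 20.9 CPM with hemin, 22.1 CPM in the knockout and 22.9 CPM with vehicle. Reads of this pair cannot be told apart if strand was not used.

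**Figure D3:**
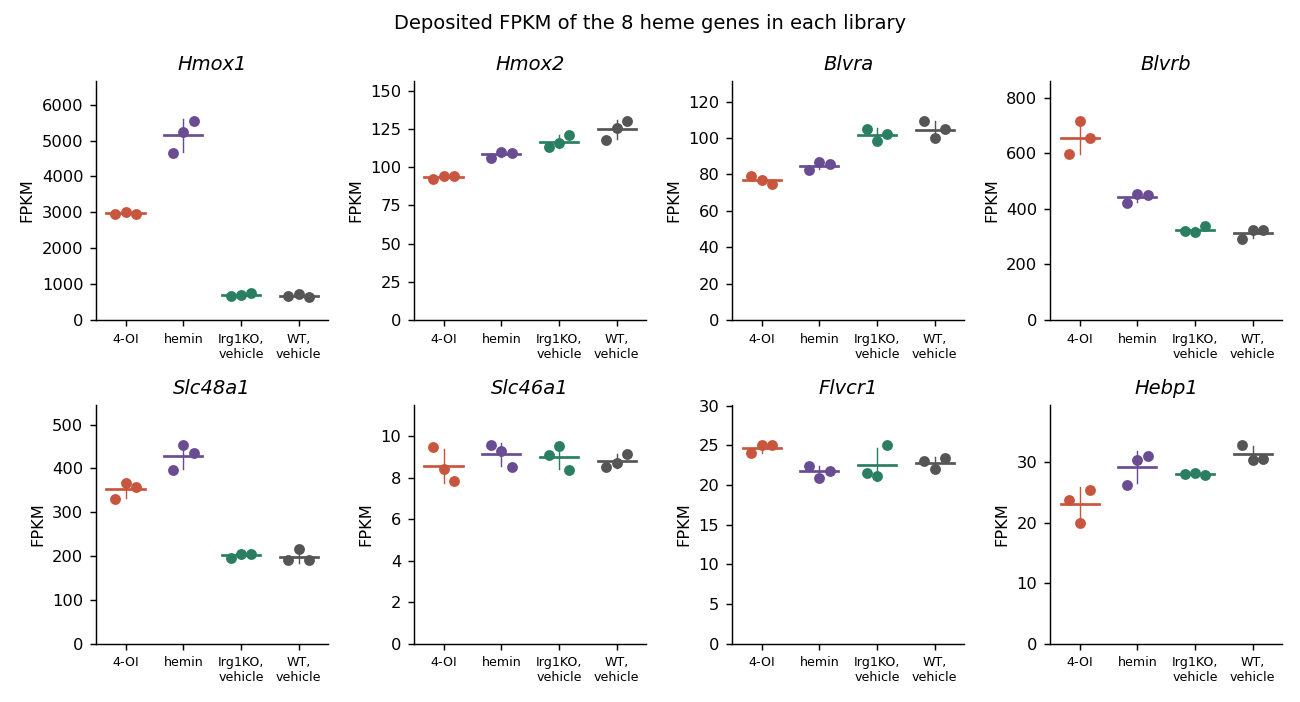
Deposited FPKM of each of the 8 genes, with 1 panel a gene and groups along the x axis; points are libraries, lines the means and bars the SD of 3 libraries. Hmox1 reached 5144 FPKM on average with hemin and 2971 FPKM with 4-OI, while Slc46a1 stayed between 7.82 and 9.60 FPKM in all 12 libraries.

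Per length, the order of the 5 most abundant genes was Hmox1, Blvrb, Slc48a1, Hmox2 and Blvra in every group, and Slc46a1 was lowest in every group. Flvcr1 and Hebp1 came between them, with Hebp1 above Flvcr1 in all groups but 4-OI. With hemin, Blvrb at 442 ± 17.6 FPKM and Slc48a1 at 429 ± 28.9 FPKM overlapped, and with 4-OI Flvcr1 at 24.7 ± 0.627 FPKM and Hebp1 at 23.0 ± 2.83 FPKM overlapped (SD, n = 3 each); all other neighbours in the order were apart. Hmox1 made up 70.6 ± 1.12% of the summed FPKM of the 8 genes with 4-OI, 82.0 ± 0.84% with hemin, 46.8 ± 0.85% in the knockout and 45.9 ± 1.33% with wild-type vehicle (SD, n = 3 each). The summed level was 4207 ± 105 FPKM with 4-OI, 6268 ± 499.6 FPKM with hemin, 1513 ± 56.2 FPKM in the knockout and 1489 ± 68.5 FPKM with vehicle (SD, n = 3 each).

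The partners and products of heme breakdown were a list of 9 genes of which 8 were tested. With 4-OI 5 rose and 2 fell (median log2 fold change 0.64), where 50.4% of all genes were called. With hemin 5 rose and 0 fell (0.44), where 17.2% of all genes were called. In the knockout 2 rose and 2 fell (-0.077, against 39.8% of all genes called), and between 4-OI and hemin 3 were higher and 3 lower (0.075, against 42.3%). The 2 genes lower in the knockout were Ftl1 and Pcbp2, an iron chaperone and RNA-binding protein. Pcbp2 had 342 ± 1.99 CPM in the knockout, against 371 ± 12.0 CPM with vehicle (SD, n = 3 each). Its log2 difference of -0.12 (adjusted p = 0.0398) was lost in 7 of 16 settings, among them each knockout library left out in turn (adjusted p from 0.0713 to 0.0907), vehicle replicate 2 (0.117) or 3 (0.0858) left out, and the 1400 genes that the knockout raised 2-fold or more removed before scaling (0.159). Slc40a1, ferroportin, the cellular iron exporter, had 1111 ± 56.9 CPM with 4-OI, 1906 ± 130.2 CPM with hemin, 460.03 ± 20.6 CPM in the knockout and 489 ± 43.9 CPM with vehicle (SD, n = 3 each). It rose by 1.19 on the log2 scale with 4-OI (adjusted p = 2.77e-16) and by 1.96 with hemin (adjusted p = 3.67e-20), and like Hmox1 it was lower with 4-OI than with hemin (log2 difference -0.78, adjusted p = 4.97e-12). Ftl1, the ferritin light chain, rose by 0.68 with 4-OI (adjusted p = 1.21e-13) and by 0.49 with hemin (adjusted p = 6.01e-09), and fell by 0.26 in the knockout (adjusted p = 8.29e-05). Fth1, the ferritin heavy chain, had 17413 ± 475 CPM with 4-OI, 16068 ± 354 CPM with hemin, 10351 ± 1048 CPM in the knockout and 8722 ± 808 CPM with vehicle (SD, n = 3 each). It rose by 1.00 with 4-OI (adjusted p = 3.16e-13). The naming rule did not take it in that comparison, and it was chosen there after its values were seen. It rose by 0.88 with hemin (adjusted p = 6.12e-11) and by 0.25 in the knockout (adjusted p = 0.00275), where its libraries overlapped those of vehicle. Por, the cytochrome P450 reductase that feeds electrons to heme oxygenase, had 401 ± 7.57 CPM with 4-OI, 348 ± 8.49 CPM with hemin and 266 ± 8.27 CPM with vehicle (SD, n = 3 each). It rose by 0.59 with 4-OI (adjusted p = 6.48e-14) and was higher with 4-OI than with hemin by 0.21 (adjusted p = 0.000268). Gstp1, a glutathione transferase with near-identical gene copies, rose by 1.85 with 4-OI (adjusted p = 8.09e-18), 0.80 with hemin (adjusted p = 1.97e-08) and 0.67 in the knockout (adjusted p = 5.23e-08). Its deposited count was whole in 0 of 12 libraries, so its level is uncertain. Ncoa4, the ferritin cargo receptor of autophagy, was lower with 4-OI than with hemin (log2 difference -0.31, adjusted p = 9.59e-07).

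Of the list of other genes of heme uptake, transport and binding, 13 in all, 10 were tested. With 4-OI 2 rose and 1 fell (median log2 fold change 0.038), beside 50.4% of all genes called. With hemin 4 rose and 0 fell (0.11), beside 17.2% of all genes called. The hemin count was 2 with upper-quartile factors, with DESeq2, on both FPKM scales, and without hemin replicate 2 or 3 or vehicle replicate 3. In the knockout 4 rose and 2 fell (0.036), beside 39.8% of all genes called. With the 1400 knockout-raised genes removed before scaling, 2 rose and 1 fell there, and 1 fell without knockout replicate 1 or vehicle replicate 2 or 3. Between 4-OI and hemin 2 were higher and 3 lower (-0.0097), beside 42.3% of all genes called. Abcb6, a porphyrin transporter, had 57.4 ± 1.97 CPM with 4-OI, 38.7 ± 2.74 CPM with hemin, 20.1 ± 1.21 CPM in the knockout and 23.8 ± 0.559 CPM with vehicle (SD, n = 3 each). It rose by 1.27 with 4-OI (adjusted p = 8.41e-18) and by 0.70 with hemin (adjusted p = 3.08e-09), and like Blvrb it was higher with 4-OI than with hemin, by 0.57 (adjusted p = 1.17e-08). Pgrmc1, a heme-binding membrane protein, rose by 0.47 with 4-OI (adjusted p = 6.54e-10) and by 0.29 in the knockout (adjusted p = 1.12e-05). Abcg2, an exporter that carries porphyrins among other substrates, fell by 0.47 with 4-OI (adjusted p = 0.000298) and was lower with 4-OI than with hemin (log2 difference -0.56, adjusted p = 5.97e-05). In the knockout Abcg2 had 19.0 ± 0.430 CPM, against 15.6 ± 1.56 CPM with vehicle (SD, n = 3 each), a rise of 0.30 (adjusted p = 0.0101). That call was lost in limma on log2(FPKM + 1) (adjusted p = 0.0513) and log2(FPKM + 0.1) (0.0580), and without vehicle replicate 2 (0.132). Hebp2, a relative of Hebp1, rose by 1.51 in the knockout (adjusted p = 1.33e-06) at a low level of 4.34 ± 0.816 CPM, against 1.56 ± 0.297 CPM with vehicle (SD, n = 3 each). Hp, haptoglobin, which binds free hemoglobin, rose by 1.11 with hemin (adjusted p = 0.000218) and by 3.43 in the knockout (adjusted p = 3.85e-19), at low levels of 4.31 ± 1.09 CPM with hemin, 22.1 ± 3.23 CPM in the knockout and 2.09 ± 0.570 CPM with vehicle (SD, n = 3 each). In the knockout Hp moved beside the stromal markers given above, whose part was not tested. Cd163, the macrophage receptor of the haptoglobin and hemoglobin complex, rose by 0.23 with hemin (adjusted p = 0.0392), and Slc25a39, a mitochondrial carrier, rose by 0.15 (adjusted p = 0.0498). The call of Cd163 was lost in 9 of 15 settings and that of Slc25a39 in 10 of 15, DESeq2 among them (adjusted p = 0.0906 for Cd163 and 0.114 for Slc25a39).

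Of 10 regulators of Hmox1 transcription, all 10 were tested. With 4-OI 6 rose and 1 fell (median log2 fold change 0.36), set against 50.4% of all genes called. With hemin 3 rose and 0 fell (0.095), set against 17.2%, and on both FPKM scales limma called 1 higher. In the knockout 1 rose and 2 fell (0.048), set against 39.8%, and 2 rose without knockout replicate 1 or vehicle replicate 3. Set directly against hemin, 4-OI had 5 higher and 2 lower (0.20), beside 42.3% of all genes called. Bach1, the heme-binding repressor of Hmox1, had 135 ± 7.79 CPM with 4-OI, 107 ± 1.16 CPM with hemin, 96.6 ± 2.77 CPM in the knockout and 95.1 ± 0.335 CPM with vehicle (SD, n = 3 each). It rose by 0.50 with 4-OI (adjusted p = 6.88e-11) and by 0.17 with hemin (adjusted p = 0.0160), the hemin call being lost without hemin replicate 3 (adjusted p = 0.0615) and in limma on log2(FPKM + 1) (adjusted p = 0.185). Mafg, a small Maf protein that pairs with both BACH1 and NRF2 on DNA, rose by 0.46 with 4-OI (adjusted p = 1.54e-10) and by 0.20 with hemin (adjusted p = 0.00204, but 0.0539 in limma on log2(FPKM + 1)) and fell by 0.22 in the knockout (adjusted p = 0.000275). The other calls in the knockout were Nr1d1, a heme-binding nuclear receptor, which rose by 0.50 (adjusted p = 0.000484), and Keap1, the adaptor that targets NRF2 for degradation, which fell by 0.19 (adjusted p = 0.0109). Bach2, a related repressor, fell by 1.91 with 4-OI (adjusted p = 7.69e-07) at a low level of 0.744 ± 0.400 CPM with 4-OI and 2.87 ± 0.355 CPM with vehicle (SD, n = 3 each). Spic, a transcription factor of iron-recycling macrophages that heme is known to induce, had 7, 15 and 4 counts with 4-OI, 45, 54 and 57 counts with hemin, 15, 14 and 13 counts in the knockout, and 6, 9 and 12 counts with vehicle. The hemin libraries stood alone above all others. Spic rose with hemin by 2.98 on the log2 scale (SE 0.30, adjusted p = 1.59e-09) and was lower with 4-OI than with hemin (log2 difference -2.61, SE 0.31, adjusted p = 7.11e-09).

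Heme synthesis was a list of 9 genes with 6 tested. With 4-OI 1 rose and 1 fell (median log2 fold change 0.076), where 50.4% of all genes were called. There 2 rose without 4-OI replicate 2, and 2 fell on both FPKM scales. With hemin 1 rose and 0 fell (-0.024), where 17.2% of all genes were called, while limma on both FPKM scales called 0 higher and 1 lower. Between 4-OI and hemin 2 were higher and 2 lower (0.10), where 42.3% of all genes were called. The 2 lower, Alad and Uros, are early enzymes of the chain, with log2 differences of -0.33 (adjusted p = 0.0104) and -0.41 (adjusted p = 0.0233). Both calls were lost without 4-OI replicate 2 (adjusted p = 0.0594 for Alad and 0.162 for Uros). That of Uros was also lost with DESeq2 (0.0644), without 4-OI replicate 3 (0.0560) and without hemin replicate 3 (0.112). In the knockout edgeR called 0 of 6 (median -0.052), where 39.8% of all genes were called, with 0 at an unadjusted p under 0.05, while DESeq2 called 0 and limma on log2(FPKM + 1) called 1. Fech, ferrochelatase, which inserts iron in the last step, had 91.5 ± 2.27 CPM with 4-OI, 70.9 ± 4.33 CPM with hemin, 59.7 ± 0.360 CPM in the knockout and 62.2 ± 1.93 CPM with vehicle (SD, n = 3 each). It rose by 0.55 with 4-OI (adjusted p = 8.86e-11) and by 0.19 with hemin (adjusted p = 0.0153), and the hemin call was lost without hemin replicate 3 (adjusted p = 0.154), vehicle replicate 1 (0.0557) or vehicle replicate 3 (0.0509) and on both FPKM scales. Uros fell by 0.55 with 4-OI (adjusted p = 0.0010).

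**Figure D4:**
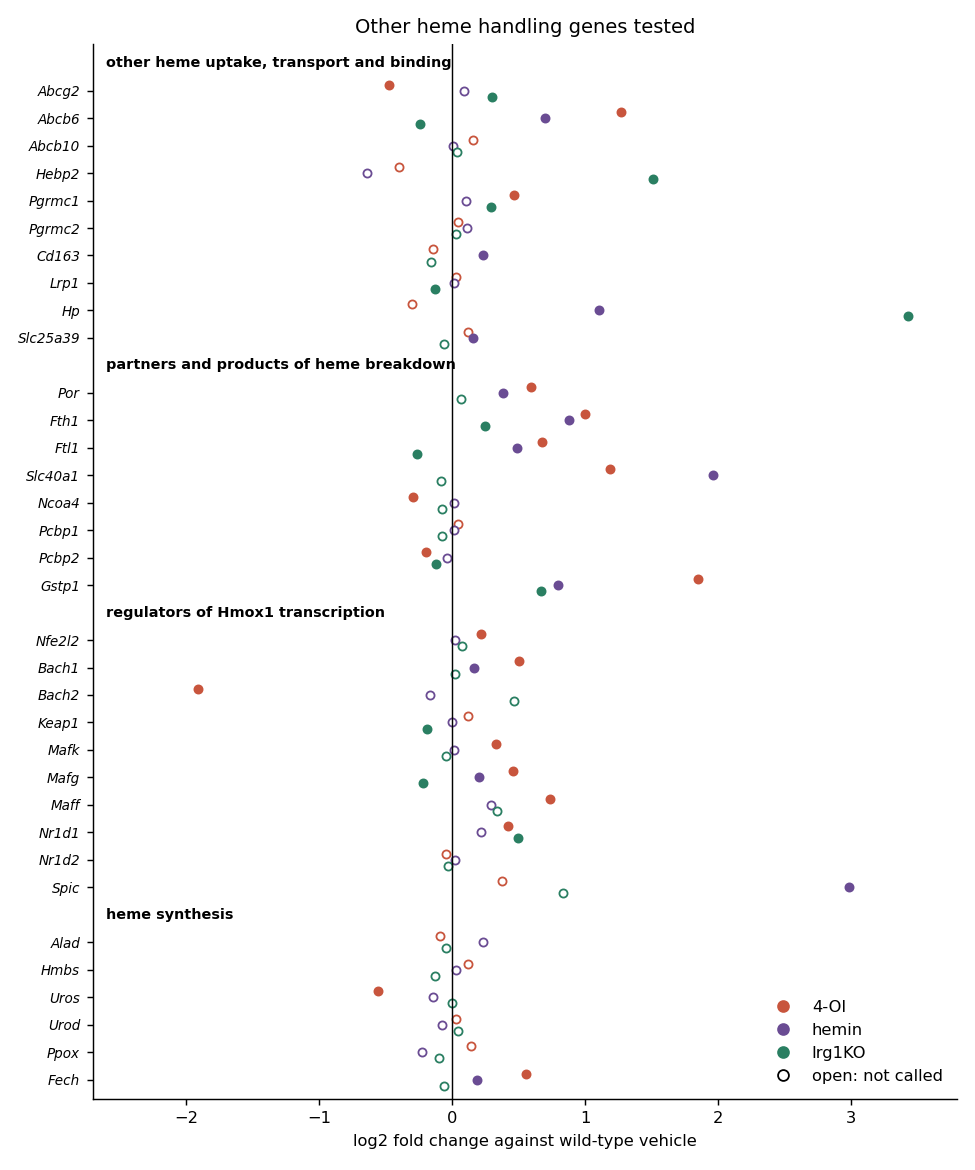
Log2 fold change against wild-type vehicle (x axis, log2 of scaled counts) of the tested genes on the lists of partners and products, other heme transport, regulators and heme synthesis; points are edgeR estimates by comparison, filled where called. Slc40a1 and Abcb6 lie to the right with both 4-OI (1.19 and 1.27) and hemin (1.96 and 0.70), Spic with hemin (2.98) and Hp with the knockout (3.43).

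For Hmox1, Slc48a1 and Blvrb, which rose with both compounds, the genes most alike over the 12 libraries were found among 9837 genes. Likeness was the root mean square difference of log2(CPM + 1), each gene centred on its own mean. The points share libraries and treatments, so this is a description. Nearest to Hmox1 were Treml4 (0.19), Dnmt3l (0.49), Slc40a1 (0.50), Jag1 (0.58) and Gclm (0.67), where Hmox1 itself had a root mean square of 1.32 around its mean. Treml4 had 63.4 ± 3.91 CPM with 4-OI, 106.2 ± 1.75 CPM with hemin, 16.1 ± 0.627 CPM in the knockout and 17.2 ± 1.45 CPM with wild-type vehicle (SD, n = 3 each), the same order of treatments as Hmox1. Dnmt3l, Jag1 and Gclm were instead higher with 4-OI than with hemin, by 0.59, 0.46 and 0.71 on the log2 scale (adjusted p = 4.53e-06, 6.30e-08 and 2.04e-14). Nearest to Slc48a1 were Ivd (0.16), Ppp1r12b (0.17), Prdx6 (0.18), Msantd3 (0.18) and Cd1d1 (0.19), with 0.53 for Slc48a1 itself. Nearest to Blvrb were Slc11a1 (0.064), H6pd (0.064), Cd300lb (0.088), Alox5ap (0.092) and Itgb2 (0.095), with 0.49 for Blvrb itself. Slc11a1, which encodes the phagosomal divalent metal transporter NRAMP1, had 1293 ± 39.5 CPM with 4-OI, 821.5 ± 36.9 CPM with hemin, 561.5 ± 19.5 CPM in the knockout and 570.3 ± 34.8 CPM with vehicle (SD, n = 3 each).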

How the data were processed

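The members and gene lists were chosen with earlier results of these data known. The deposited files give, per gene and library, an expected count, an FPKM value and a length, per the file headers. HISAT2, StringTie, Bowtie2 and RSEM, with build GRCm39 (mm39), are named in the submitters' processing notes, and their versions, the strand setting and the annotation are not given in the sources used here. The deposited expected counts were rounded to whole numbers (90.6% to 92.0% of a library's values were whole already), filtered with filterByExpr to 12148 genes, scaled by TMM and tested with edgeR 4.0.16 (quasi-likelihood test, all 12 libraries in 1 fit, Benjamini-Hochberg over all genes tested, called at an adjusted p under 0.05). CPM are these counts relative to TMM-scaled library size. The deposited FPKM values served to compare levels between genes and, as log2 values with pseudocounts of 1 and 0.1, for limma 3.58.1. DESeq2 1.42.0, other scalings and filters, only the groups compared, a replicate block and each library left out were the alternatives, and the same alternatives were applied to the pathway lists after seeing the data. Replicate numbers did not pair libraries. Replicates differed by more than sampling noise (chi-square per degree of freedom 2.36 to 4.84). The common dispersion fitted by edgeR gave a coefficient of variation between replicates of 4.71%, which may be technical. On simulated counts of 12148 genes with 200 changed, the 4-OI comparison found 75% of changes of 0.5 and 89% of changes of 1 on the log2 scale with 8 false calls, and the knockout comparison found 65% and 95% with 15. The hemin comparison found 73% and 93% with 9, and that of 4-OI with hemin 66% and 91% with 14. In the data a far larger share of genes was called, so these rates do not carry over to the calls above. Named genes were the members, Acod1, from each pathway list the 4 genes with the lowest adjusted p in a comparison, and the 5 genes most like Hmox1, Slc48a1 and Blvrb. Listed genes without a row, such as Alas1, were not analysed here. Promoter windows came from RefSeq (GRCm38.p6), and exon overlaps from GENCODE of the same build.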

Additional observations from a re-analysis of the deposited data

How the results depend on the processing

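The calls and directions of Hmox1, Blvrb and Slc48a1 with 4-OI and with hemin held in all alternatives run, with log2 fold changes of 2.12 to 2.33 and 2.91 to 3.04 for Hmox1, 1.06 to 1.27 and 0.49 to 0.58 for Blvrb, and 0.82 to 1.03 and 1.10 to 1.24 for Slc48a1. Over all members and comparisons, 444 values kept direction and side of the threshold, 13 lost the call, 8 gained it and 23 turned sign, all of the last where no call was made. With the 1400 genes that the knockout raised 2-fold or more removed before scaling, 3125 genes were called there, against 4833. Leaving out 1 library at a time gave 5393 to 5794 genes called with 4-OI, 1537 to 2086 with hemin, 4213 to 4586 in the knockout and 4392 to 4749 between 4-OI and hemin, and 6 to 7, 4 to 5, 0 and 4 to 6 members. The same-numbered libraries correlated between -0.079 and 0.067, so the numbers were not taken to pair them. With the replicate block, 6156, 2159, 4879 and 5181 genes and 7, 5, 0 and 6 members were called, the added member being Hmox2 with hemin (-0.13, adjusted p = 0.0490).

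The values that turned sign were these, and the cause was not tested. For Slc46a1 the 4-OI difference was -0.036 and -0.040 on log2(FPKM + 1) and log2(FPKM + 0.1). Between 4-OI and hemin that of Slc46a1 was -0.020 with upper-quartile factors, -0.0012 with no filter, -0.0067 with the replicate block, and -0.083 and -0.092 on the FPKM scales, and ran from -0.077 to 0.051 with libraries left out. In the knockout, Flvcr1 was at -0.013 with RLE factors and with DESeq2, -0.014 with no filter, and -0.019 and -0.020 on the FPKM scales, and ran from -0.066 to 0.059 with libraries left out. Blvra in the knockout was at 0.012 with those 1400 genes removed, and ran from -0.059 to 0.0095 with libraries left out. With hemin, leaving out libraries gave -0.034 to 0.015 for Flvcr1 and -0.084 to 0.034 for Hebp1. Of the called genes named from the pathway lists, 745 values kept the call, 44 lost it and 0 turned sign. Low counts limit the precision of Bach2, Spic, Hebp2 and Hp, with 3.89, 4, 9 and 13 counts in their lowest library, and Uros, Abcg2 and Slc46a1 had 57, 104 and 146 in theirs.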
